A study of Homo sapiens with 2 samples.

Results

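The cells described here are the T cells that remained among A375 melanoma cells after coculture with cytotoxic T lymphocytes (CTLs). They were selected on measured values in a single-cell RNA library. A barcode was called a T cell barcode when at least 3 of 13 marker genes (CD2, CD3D, CD3E, CD3G, CD52, LCK, PTPRC, TRAC, TRBC2, GZMA, GZMB, NKG7 and CCL5) had a UMI and those genes made up at least 0.5% of its UMIs. Each UMI stands for 1 RNA molecule. The rule found 128 of 6767 kept barcodes of the persister library, or 1.89% (95% exact binomial interval 1.58 to 2.25%). It found 0 of 10630 kept in the parental library, where the same interval reaches 0.0347%. Together the 2 libraries held 17397 kept barcodes. All intervals and limits here cover counting error only.

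The study compared untreated A375 cells, an established human melanoma line (parental), with the A375 cells alive after 15 days with NY-ESO-1 CTLs (persister). NY-ESO-1 is a cancer-testis antigen. The coculture medium held 7.5 ng/mL recombinant interleukin 2 (IL-2), and CTLs were added afresh every 3 days, so the time each T cell had spent in culture is not known. The labels name no CTL donor and describe neither how the CTLs were made nor whether any step removed them beyond washing and trypsin. Each group had 1 library, and cells of 1 library are not replicates, so values below are descriptions of these cells without a test.

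A CTL kills by releasing granules that hold perforin, which opens the target's membrane, and granzymes, proteases that start death inside it. It also carries death ligands and, once its receptor has met antigen, secretes interferon gamma, tumour necrosis factor and chemokines that call in further cells. Activation brings up the high-affinity IL-2 receptor and costimulatory receptors, drives division, and also induces inhibitory receptors such as LAG-3, TIGIT and TIM-3, which stay high in exhausted T cells but are normal early products of stimulation too.

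The T cell barcodes were small. They held a median of 2848 UMIs (range 1063 to 11850) and 1421 genes, against 11284 UMIs and 3166 genes in the other 6639 persister barcodes. The median share of mitochondrially encoded UMIs was 11.8% in T cell barcodes and 7.53% in the others. The markers took between 0.507 and 4.15% of a T cell barcode's UMIs, with a median of 1.31%. All T cell barcodes had at least 5 of the markers and 116 of 128 had at least 8. Just inside the limit, 5 T cell barcodes had a marker share under 0.6%, with a median melanoma gene share of 0.0572%. Just outside it, 20 other barcodes had a share of 0.25% or more, 18 of them with at least 3 markers, and a median melanoma gene share of 0.564%. Barcode sequences shared by both libraries numbered 38, of which 1 was a T cell barcode.

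**Figure D1:**
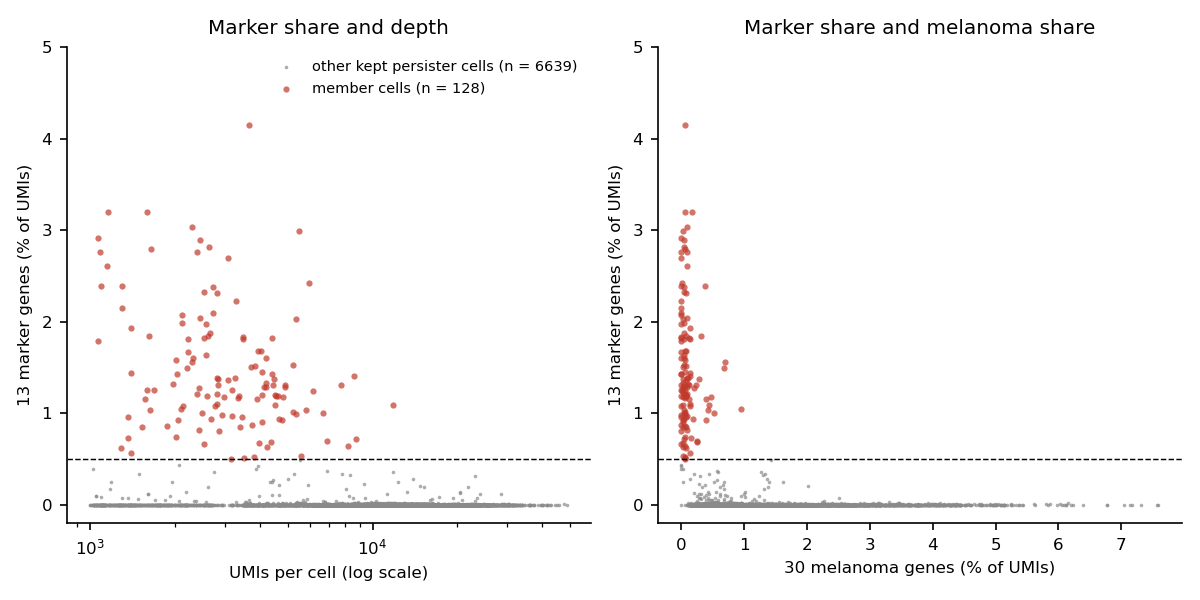
Share of UMIs from the 13 marker genes (y axis, %) against UMIs per cell (left, log scale) and against the share from 30 melanoma genes (right, %), for the 128 T cell barcodes ("member cells", red) and the other 6639 kept persister barcodes (grey). The dashed line is the 0.5% limit that chose the members; the red points stay below 1% melanoma gene share, while grey points reach 7.59%.

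Tumour RNA was measured in the T cell barcodes from a list of 30 melanoma genes. Over the 11 list genes at 50 or more UMIs per 1000000 UMIs (CPM) in the other persister barcodes, the level in T cell barcodes was a median of 9.28% of that in the others. With the 146 barcodes that a marker share of 0.25% or more would take in, this median was 23.0%. Over the 128 it ranged from 3.71% for S100B to 26.5% for CSPG4, a melanoma surface proteoglycan. The melanoma share of a single T cell barcode ran from 0 through a median of 0.0511% to 0.951%, and 25 barcodes had none. In 17 of 128 it reached the other barcodes' 1st percentile. No doublet caller was run, and the part of doublets and free RNA in these values was not tested. The level that 9.28% of the other barcodes' CPM would give is printed below as the tumour RNA estimate, for genes named with their level in the T cell barcodes that reached 100 CPM in the others. These estimates scale with the share and would be higher at 23.0%. The other barcodes in turn carried T cell RNA: 49 of 6639 had at least 3 markers, and these 49 held 865 of the 1833 marker UMIs found outside T cell barcodes.

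Levels were compared between the sum of the T cell barcodes (428026 UMIs) and the sum of the other persister barcodes (79973182 UMIs). Of 6242 genes at 25 CPM or more in either sum, 1682 (26.9%) were at least 2-fold higher in T cell barcodes and 923 (14.8%) at least 2-fold lower, so calls this size are common between these cell types. The median gene was 0.24 higher in T cell barcodes on the log2(CPM + 1) scale. Scaling by TMM, which centres a trimmed mean of gene ratios, moved that median by -0.43 to -0.19, so the median gene was not centred. With TMM, 6159 genes reached 25 CPM, and the calls became 1049 higher (17.0%) and 1662 lower (27.0%). The share of calls that were higher moved from 64.6% to 38.7%. Counts for a gene list are therefore given under both scalings where they differ. A gene's UMIs come from its 3' end, 1 per molecule, so CPM values of different genes are compared as molecules without a length term.

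The gene lists below are described beside these shares, over the list genes that reached 25 CPM, called measured here. A gene could pass the 25 CPM limit through its level in T cell barcodes alone, so a list of T cell genes had to lie on the higher side and its counts describe the list without supporting it. Over measured list members the median log2 difference was 6.80 for granule genes, 7.72 for chemokines, 5.30 for cytokines and death ligands, 5.60 for activation genes, 6.18 for checkpoint genes, 1.09 for G2 and M phase genes, 0.81 for S phase genes and 0.31 for interferon response genes, beside 0.24 over all genes.

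Genes of the lytic granules were abundant. Of 16 granule genes, 15 were measured, 14 of them at least 2-fold higher in T cell barcodes and 0 lower (12 and 1 of 14 with TMM). GZMB (chr14:24630954-24634267, minus strand, GRCh38), which encodes the caspase-activating granzyme B, stood at 3418 CPM (95% exact Poisson interval 3245 to 3598) against 2.63 CPM in the other barcodes and 0 UMIs in the parental library. A T cell barcode held a median of 8 GZMB UMIs and at most 64, and 116 of 128 had at least 1. GZMA, a tryptase of the same granules, stood at 1404 CPM, with a median of 3 UMIs and a maximum of 84 in 1 barcode. Both genes were among the markers of the rule, and 125 of 128 barcodes had a UMI of 1 or the other.

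The transcript of the pore protein was sparser than those of GZMB and GZMA. PRF1, which encodes perforin, stood at 150 CPM (115 to 191), with UMIs in 38 barcodes, 37 of which also had GZMB. GNLY, the membrane-damaging granulysin, stood at 442 CPM (381 to 509), yet 40 barcodes held all of it and 10 of those held 70.9%. The remaining granzymes were low: GZMM stood at 72.4 CPM, GZMH at 63.1 CPM and GZMK, a granzyme of memory and transitional T cells, at 25.7 CPM with 11 UMIs in 9 barcodes. Among other granule genes, SRGN (serglycin, the proteoglycan that packs granzymes) stood at 797 CPM against 6.18 CPM. CTSW stood at 402 CPM, CST7 at 280 CPM and RAB27A, which docks granules, at 182 CPM against 8.04 CPM. CTSC, the protease that activates granzymes and is used by many cells, stood at 210 CPM against 337 CPM in the other barcodes, with a tumour RNA estimate of 31.3 CPM.

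**Figure D2:**
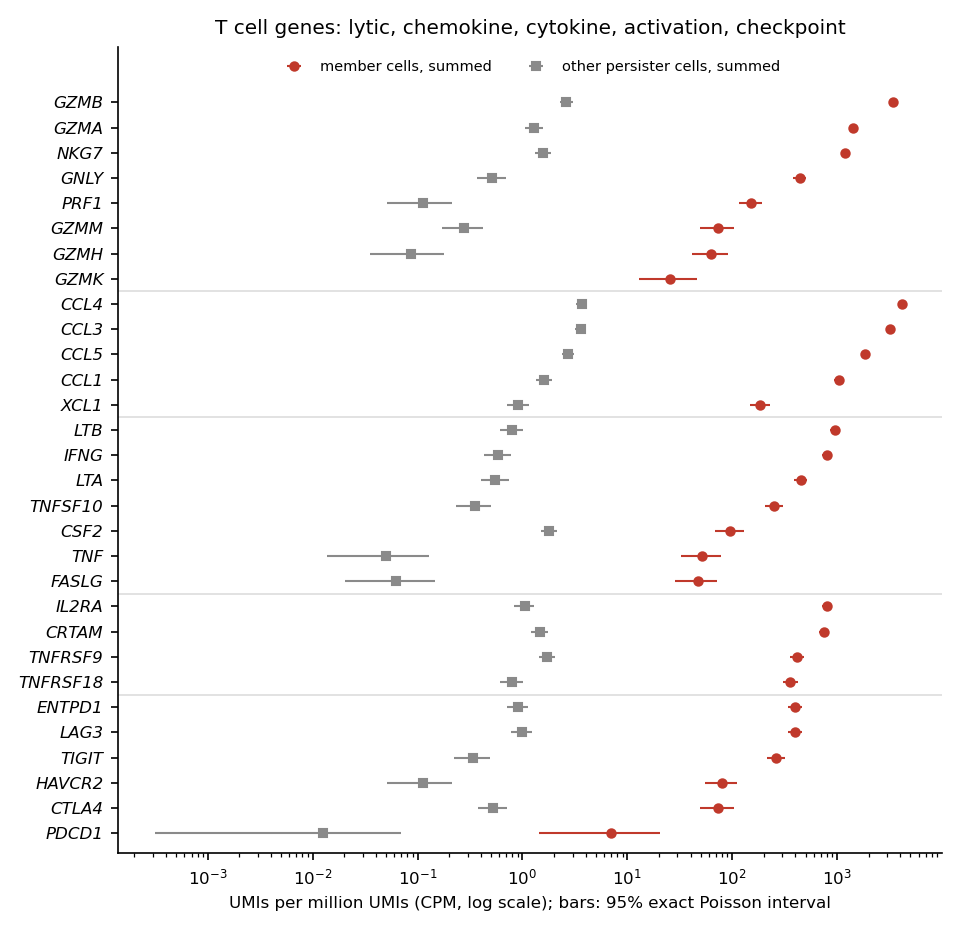
Level of 30 T cell genes in the summed T cell barcodes (red) and the summed other persister barcodes (grey), in CPM on a log scale, with 95% exact Poisson intervals; groups from the top are lytic, chemokine, cytokine and death ligand, activation and checkpoint genes. All 30 lie further right in T cell barcodes, from CCL4 at 4189 CPM to PDCD1 at 7.01 CPM; GZMK has no grey point because it had 0 UMIs there.

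Chemokine transcripts were abundant. Of 11 chemokine genes, 8 were measured, and 7 of these stood at least 2-fold higher and 1 lower in T cell barcodes under either scaling, and together they made up 10733 CPM against 143 CPM. CCL4 and CCL3, chemokines that draw T cells and macrophages, stood at 4189 CPM (3997 to 4387) and 3191 CPM (3024 to 3365), against 3.68 and 3.601 CPM in the other barcodes and 0 UMIs in parental cells. A T cell barcode held a median of 4 UMIs of each, and the highest held 174 of CCL4 and 130 of CCL3. CCL5 stood at 1843 CPM and was a rule marker. CCL1, a ligand of CCR8, stood at 1035 CPM (941 to 1136) in 54 barcodes. XCL1 and XCL2, which attract cross-presenting dendritic cells, stood at 185 and 107 CPM. CCL4L2 at 121 CPM and CCL3L1 with 6 UMIs are near-identical copies of CCL4 and CCL3, and no source says how reads fitting both copies were treated, so the split within each pair is uncertain. CXCL8, the neutrophil chemokine, was the lower gene, at 37.4 CPM against 127 CPM, with a tumour RNA estimate of 11.7 CPM and UMIs in 8 barcodes.

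Among the genes of the cytokine and death ligand list, LTB and IFNG stood highest. Of its 18 genes, 12 were measured, 11 at least 2-fold higher and 1 lower (8 and 1 of 10 with TMM). IL32, a proinflammatory cytokine outside that list, stood above all of them at 1684 CPM (1564 to 1812) in 124 barcodes, against 138 CPM in the other barcodes, with a tumour RNA estimate of 12.8 CPM. IFNG (chr12:68154768-68159747, minus strand) stood at 792 CPM (710 to 881) against 0.588 CPM in the other barcodes. It had UMIs in 77 barcodes, with a median of 1 and a maximum of 45. LTB and LTA, the subunits of lymphotoxin, stood at 951 CPM in 85 barcodes and 451 CPM in 50 barcodes. TNF, their neighbour in the MHC region, stood at 51.4 CPM, with 22 UMIs in 15 barcodes. CSF2, which encodes GM-CSF, stood at 95.8 CPM in 24 barcodes. IL2 itself had 0 UMIs in T cell barcodes, in a coculture whose medium contained IL-2. The limit used here for a count of 0 is 3 UMIs or 7.01 CPM. IL10 had 1 UMI and IL21 had 2. Cytokines of type 2 cells were seen at low level, with 12 IL13 UMIs in 8 barcodes, 6 IL4 UMIs in 4 and 4 IL5 UMIs in 3. AREG, a growth factor, was the lower gene, with 4 UMIs or 9.35 CPM against 273 CPM. Its tumour RNA estimate of 25.4 CPM was above that level.

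Death ligands were present at modest levels. TNFSF10 (TRAIL) stood at 252 CPM (207 to 305) in 66 barcodes, and FASLG at 46.7 CPM (28.5 to 72.2) in 17 barcodes. On the tumour side, the matching receptor genes in the other persister barcodes stood at 40.0 CPM for TNFRSF10B against 11.2 CPM in parental cells, and at 21.7 CPM for FAS against 5.02 CPM. The T cell barcodes had FAS too, at 74.8 CPM (51.1 to 106). IFNGR1 and TNFRSF1A, receptors for interferon gamma and TNF, stood at 9.03 and 66.6 CPM in the other barcodes, against 7.26 and 42.4 CPM in parental cells.

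The T cell receptor machinery was detected beyond the markers of the rule. Of 27 genes of receptor signalling, 24 were measured and all 24 were at least 2-fold higher in T cell barcodes, as were all 22 measured under TMM; CD2, CD3D, CD3E, CD3G, LCK and PTPRC among them had chosen the cells. ZAP70, the kinase recruited to the engaged receptor, stood at 81.8 CPM against 0.0875 CPM. CD247, the zeta chain, stood at 79.4 CPM. The adaptors LAT and LCP2 stood at 154 and 241 CPM. PTPRCAP had 0 UMIs, and its annotated range overlaps CORO1B on the same strand, so its value cannot be read.

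Among lineage genes, CD8 transcripts were seen far more often than CD4. CD8A stood at 154 CPM (119 to 196) with UMIs in 48 barcodes, and CD8B at 88.8 CPM in 31. Either was found in 64 of 128 barcodes (50%) and both in 15. CD4 had 1 UMI in 1 barcode. The 64 barcodes with CD8A or CD8B were deeper, with a median of 3729 UMIs against 2745 in the 64 without, and a barcode without a CD8 UMI may express CD8. After each barcode was thinned to 1000 UMIs, 10.2% of T cell barcodes and 0.0452% of the other persister barcodes had a CD8A UMI. CD40LG, the helper ligand that some CD8 cells also make, had 13 UMIs in 7 barcodes, 4 of which had a CD8 UMI. FOXP3, the regulatory T cell factor, had 2 UMIs. RUNX3, which sustains the cytotoxic CD8 programme, stood at 523 CPM against 23.0 CPM, and ZBTB7B, the helper lineage factor, had 6 UMIs.

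Other blood cell types left few transcripts. The B cell genes MS4A1, CD79A and PAX5, the myeloid genes CD14, CSF1R and FCN1, and all 5 red cell and platelet genes had 0 UMIs in T cell barcodes. LYZ had 2 UMIs. Of 10 NK cell genes, KLRF1, NCAM1 and FCER1G had 0 UMIs, TYROBP had 2 and FCGR3A and NCR1 had 1 each. KLRD1, which T cells also use, stood at 250 CPM in 65 barcodes and NCR3 at 51.4 CPM in 20. KLRK1 overlaps KLRC4-KLRK1 on the same strand, so its 1 UMI cannot be read. The summed NK list stood at 332 CPM, the B cell list at 42.1 CPM, mostly MZB1 with 14 of 18 UMIs, and the myeloid list at 84.1 CPM, mostly AIF1 with 22 of 36 UMIs.

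Activation genes were high, with exceptions in genes the tumour cells share. Of 23 activation genes, all measured, 18 stood at least 2-fold higher and 3 lower (17 and 4 of 22 with TMM). IL2RA, the chain that makes the IL-2 receptor high-affinity, stood at 797 CPM (714 to 886) against 1.05 CPM, with a median of 2 UMIs and UMIs in 94 barcodes. CRTAM, an adhesion receptor of activated cytotoxic cells, stood at 755 CPM. The costimulatory receptors TNFRSF9 (4-1BB), TNFRSF18 (GITR), TNFRSF4 (OX40) and CD27 stood at 416, 357, 138 and 60.7 CPM. CD70, the ligand of CD27, stood at 378 CPM against 111 CPM, with a tumour RNA estimate of 10.3 CPM. CD69, an early marker, stood at 88.8 CPM in 30 barcodes and EGR2, induced by receptor signalling, at 91.1 CPM in 27. The 3 lower genes were NR4A1 (44.4 against 202 CPM, tumour RNA estimate 18.7 CPM), HLA-DRA (164 against 430 CPM, estimate 39.9 CPM) and CD74 (904 against 3471 CPM, estimate 322 CPM). NR4A3, a relative of NR4A1, was higher, at 44.4 CPM against 0.7 CPM.

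Genes of the IL-2 response were also high: of 12, 10 were measured, 9 of them at least 2-fold higher and 1, LIF, lower, under either scaling. GZMB and IL2RA, named above, are among the 9. CCND2, a cyclin induced by IL-2, stood at 743 CPM (664 to 829) against 1.19 CPM in the other barcodes and 0 UMIs in parental cells, with UMIs in 101 T cell barcodes. The feedback inhibitors SOCS1, SOCS2 and CISH stood at 136, 53.7 and 39.7 CPM. BCL2 stood at 95.8 CPM against 3.51 CPM.

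Inhibitory receptors differed widely in level. Of 17 checkpoint and exhaustion genes, 9 were measured, and 8 of these stood at least 2-fold higher and 0 lower under either scaling. ENTPD1 (CD39) and LAG3 stood at 400 and 397 CPM with UMIs in 72 and 75 barcodes. TIGIT stood at 262 CPM (215 to 315) in 55 barcodes, HAVCR2 (TIM-3) at 79.4 CPM in 28 and CTLA4 at 72.4 CPM in 25. PDCD1, which encodes PD-1, had only 3 UMIs, or 7.01 CPM (1.45 to 20.5). BTLA had 0 UMIs and CD160 and CD244 had 1 each. Of the 5 receptors PDCD1, CTLA4, LAG3, HAVCR2 and TIGIT, at least 1 was seen in 101 barcodes, at least 2 in 60 and at least 3 in 20. TOX, a factor of the exhausted state, had 7 UMIs and TOX2 had 3, whereas BATF stood at 234 CPM. CXCL13, a product of exhausted tumour T cells, had 5 UMIs, all in 1 barcode.

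Some ligands of these receptors were read in the other persister barcodes. CD274 (PD-L1) stood at 20.9 CPM against 1.79 CPM in parental cells, PVR (a TIGIT ligand) at 17.5 against 12.3 CPM, and LGALS9 (a TIM-3 ligand) at 2.33 against 0.0681 CPM. FGL1, the only LAG-3 ligand read here, had 0 UMIs in either. The MHC class II gene HLA-DRA, named above, was not paired with LAG3 here, so the FGL1 value does not cover other LAG-3 ligands. The CTLA-4 ligands CD80 and CD86 were found in T cell barcodes, at 60.7 and 39.7 CPM against 0.113 and 0.0500 CPM in the other barcodes. CXCL10, ligand of CXCR3, stood at 71.0 CPM in the other barcodes, while CXCR3 had 12 UMIs in 12 T cell barcodes.

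Naive and memory genes were scarce. IL7R and KLF2 had 0 UMIs, each allowing up to 7.01 CPM, TCF7 had 7 and LEF1 had 2. CCR7, the lymph node homing receptor, had 19 UMIs in 11 barcodes. Of the list of 12, 6 genes were measured, 5 at least 2-fold higher and 0 lower (5 and 1 of 6 with TMM), among them the transcription factors BACH2, FOXP1 and SATB1 at 46.7, 103 and 133 CPM.

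Of 18 transcription factors, 16 were measured, 15 at least 2-fold higher in T cell barcodes and 1, ID3, lower, under either scaling. ID3 was under 2-fold with a stricter cell filter (at least 1000 genes and 2000 UMIs and at most 10% mitochondrial UMIs), which left 32 T cell barcodes. HOPX and IKZF3 stood at 381 and 348 CPM, BHLHE40 at 266 CPM and PRDM1, which drives effector differentiation, at 180 CPM. GATA3, known for type 2 cells and also used by activated CD8 cells, stood at 213 CPM in 60 barcodes, above TBX21 and EOMES, the T-box factors of effector cells, at 42.1 and 60.7 CPM. Among 17 migration genes, 9 were measured and all 9 were at least 2-fold higher (7 of 8 with TMM, 0 lower), led by CORO1A at 542 CPM, ITGA1 at 180 CPM (76.4 CPM in the other barcodes, under 2-fold with TMM and with the stricter filter) and ITGAL, a chain of the adhesion receptor LFA-1, at 164 CPM. CX3CR1 and CCR6 had 0 UMIs.

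Genes that protect cells from death were mixed. Of 11, all measured, 8 stood at least 2-fold higher and 3 lower under either scaling. SERPINB9, the inhibitor of granzyme B, stood at 56.1 CPM (35.9 to 83.4) in 20 T cell barcodes, against 0.163 CPM in the other persister barcodes and 0 UMIs in parental cells. CFLAR, which blocks caspase 8, stood at 390 CPM against 17.0 CPM. BCL2A1 and MCL1, survival proteins of the BCL2 family, were lower, at 49.1 against 131 CPM and 147 against 302 CPM, with tumour RNA estimates of 12.1 and 28.0 CPM. MCL1 was under 2-fold when each barcode was weighted equally, at a marker share of 1% or more and with the stricter cell filter. Among 12 death genes, all measured, 6 stood at least 2-fold higher and 1, BID, lower (6 and 2 with TMM); BCL2L11 (BIM) stood at 88.8 CPM against 2.51 CPM.

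Cell cycle transcripts were common in the T cell barcodes. Of 42 S phase genes, 32 were measured, 13 (40.6%) higher by 2-fold or more and 0 lower. Of 52 genes of G2 and M phase, 48 were measured, 25 (52.1%) higher and 3 lower. With TMM the higher genes became 8 (25%) and 16 (33.3%) of as many, beside 17.0% over all genes, and the lower ones were 0 and 3 in number. TOP2A, the mitotic topoisomerase, stood at 988 CPM (896 to 1087) against 259 CPM in the other persister barcodes and 535 CPM in parental cells, with a tumour RNA estimate of 24.1 CPM. It had UMIs in 58 T cell barcodes. MKI67 stood at 470 CPM against 142 and 310 CPM (estimate 13.2 CPM), HMGB2 at 834 against 151 and 280 CPM (estimate 14.0 CPM), and PCNA, the replication clamp, at 164 against 33.6 and 137 CPM. TUBB4B, CKS1B and ANLN were the lower genes, at 152 against 372 CPM, 189 against 407 CPM and 16.4 against 34.8 CPM. The tumour RNA estimates for TUBB4B and CKS1B were 34.6 and 37.8 CPM, and both genes were under 2-fold with the stricter cell filter.

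Counted per cell after thinning to 1000 UMIs, 109 of 128 T cell barcodes (85.2%, exact interval 77.8 to 90.8%) had 3 or more UMIs of the cycle genes, against 64.4% of the other persister barcodes and 97.6% of parental ones. That limit is low, since the median was 8 UMIs in T cell barcodes, 4 in the others and 12 in parental cells. With 10 or more UMIs, a limit added after the values were seen, the shares were 46.1% (37.2 to 55.1%), 21.3% and 68.0%. A UMI of MKI67 or TOP2A was found in 45.3%, 22.2% and 50.4%. At 20 or more UMIs the shares were 14.1%, 3.42% and 8.48%. Among inhibitors of the cycle, CDKN1B and TXNIP were higher, at 84.1 against 22.1 CPM and 86.4 against 24.96 CPM, and BTG1 lower, at 311 against 706 CPM with a tumour RNA estimate of 65.5 CPM. CDKN2A stood at 35.04 against 9.04 CPM, a direction that turned in the 32 barcodes of the stricter cell filter.

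**Figure D3:**
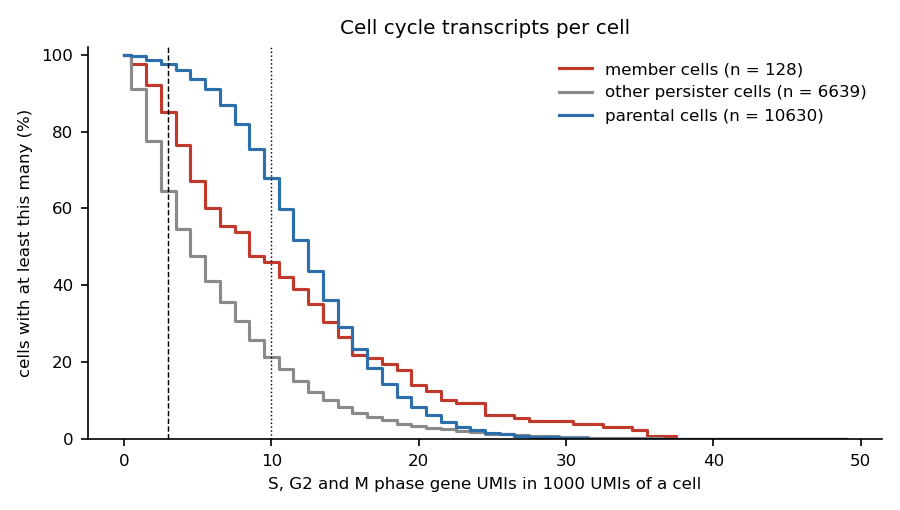
Share of cells (y axis, %) with at least the given number of S, G2 and M phase gene UMIs (x axis) among 1000 UMIs drawn from each cell, for T cell barcodes (red), other persister barcodes (grey) and parental barcodes (blue). The dashed line is the limit of 3 UMIs and the dotted line the limit of 10; at 10 the red line lies at 46.1%, between the grey at 21.3% and the blue at 68.0%.

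Interferon response genes were close to the background. Of 28, 25 were measured, 6 (24.0%) at least 2-fold higher and 6 (24.0%) lower, beside 26.9% and 14.8% over all genes. With TMM they were 4 (16.0%) and 8 (32.0%), beside 17.0% and 27.0%. IRF1, the first transcription factor induced by interferon gamma, stood at 213 CPM (171 to 261) in T cell barcodes, 945 CPM in the other persister barcodes and 17.0 CPM in parental cells, with a tumour RNA estimate of 87.7 CPM. GBP5 went the other way, at 147 CPM (113 to 188), 29.6 CPM and 0 UMIs. IFNGR2, a chain of the interferon gamma receptor, had 1 UMI in T cell barcodes or 2.34 CPM, against 32.9 CPM. B2M, which encodes beta-2 microglobulin, stood at 6972 CPM in T cell barcodes and 6978 CPM in the other persister barcodes, against 685 CPM in parental cells and a tumour RNA estimate of 648 CPM. Of 16 glycolysis genes, 13 were measured, 2 at least 2-fold higher and 0 lower (1 and 2 with TMM). GAPDH stood at 2591 CPM against 4048 CPM, with an estimate of 376 CPM.

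The 15 genes with the largest difference outside the markers and outside antigen receptor, ribosomal and mitochondrial genes were CCL4, CCL3, LTB, IFNG, LINC01871, CCL1, IL2RA, CCND2, LCP1, PMCH, CRTAM, ALOX5AP, GNLY, LTA and JAML. LCP1, the leukocyte actin bundler, stood at 1217 CPM against 2.71 CPM, and LINC01871, a long noncoding RNA, at 960 CPM against 1.19 CPM in 106 barcodes. ALOX5AP, which serves leukotriene synthesis, stood at 507 CPM in 91 barcodes. PMCH, which encodes the precursor of melanin-concentrating hormone, stood at 400 CPM (342 to 464) in 41 barcodes, against 0.288 CPM in the other barcodes. At the other end, the 10 lowest all had 0 UMIs in T cell barcodes, as did 46 measured genes in all: CAVIN1, SELENOM, PDE1C, PTPRZ1, NFIB, CTBP2, PFN2, VCX2, RHOBTB3 and TGM2. CAVIN1, a coat protein of caveolae, was at least 11.5-fold lower against the limit of 3 UMIs over the group, and TGM2, a transglutaminase, at least 7.69-fold lower.

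The other barcodes' levels of T cell genes included RNA in barcodes with several T cell markers. Without the 49 other barcodes that had at least 3 markers, the comparison level fell to 0.881 CPM for GZMB, 1.18 CPM for CCL4 and 0.302 CPM for IFNG. Of 237 called genes, 64 moved beyond the counting interval of their ratio. The 49 were picked by the rule's own markers, so leaving them out lowers the comparison level of T cell genes by design. That 0 of the 237 fell under 2-fold is therefore no test of the calls. The levels in the T cell barcodes do not depend on that choice.

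The T cell barcodes varied among themselves beyond counting error in genes of several kinds. Thinned to 1000 UMIs, the variance of a gene over the 128 barcodes had a median of 1.04 times its mean over 1704 genes, close to 1, which counting alone gives. It was 12.3 times the mean for CCL4, 11.9 for CCL3, 8.42 for MALAT1, 7.57 for IFNG, 7.06 for GNLY, 6.99 for CCL1, 5.50 for PMCH, 5.13 for GZMA, 4.51 for MT-CO2, 4.49 for CCL5, 3.71 for LTB, 3.66 for TMSB4X and 3.38 for MT-CO3. The list thus held chemokines and cytokines beside a nuclear noncoding RNA (MALAT1), mitochondrial transcripts and an actin-binding peptide (TMSB4X). TIMP1, a gene of the melanoma list, came next at 3.26. GZMB, at 3.21, was more even than GZMA. For the same relative spread this ratio rises with a gene's mean, so the order mixes level with spread. The 1704 genes were taken at a mean of 0.1 UMIs or more. The mean was 31.7 for MT-CO2 and 14.6 for MALAT1, against 0.891 for IFNG. Of 1000 UMIs, CCL4 took 0 in 47 barcodes and up to 40 in the highest, with a median of 2. The 10 barcodes with most UMIs held 43.3% of all CCL4 UMIs, 47.7% of CCL3, 49.6% of IFNG, 53.3% of LTB and 59.8% of CCL1, against 25.9% of GZMB.

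**Figure D4:**
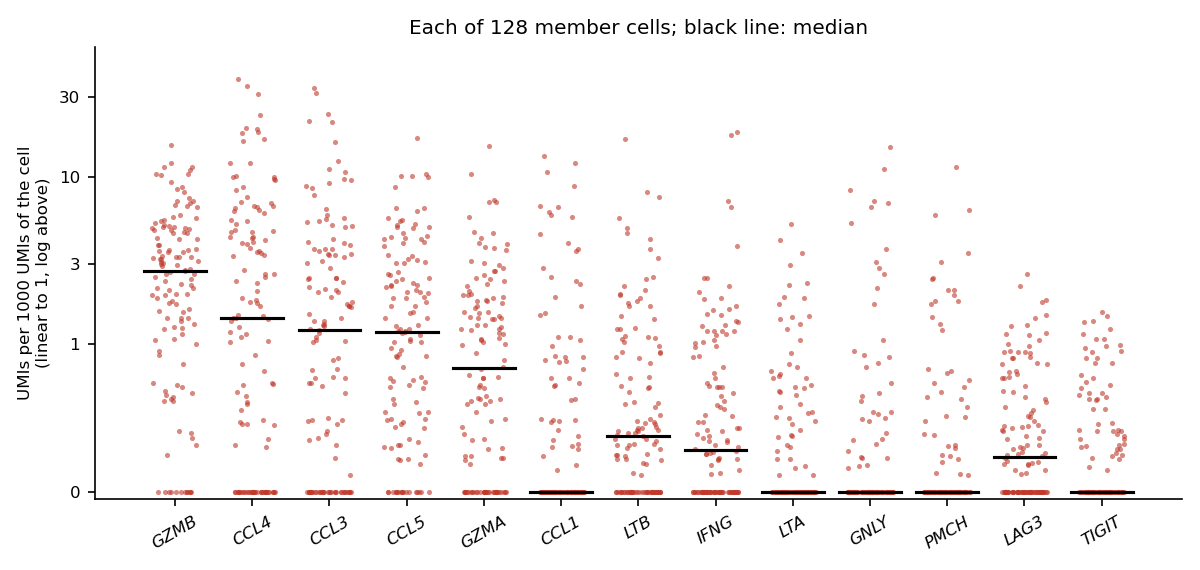
UMIs of 13 genes per 1000 UMIs of a cell (y axis, linear to 1 and log above) in each of the 128 T cell barcodes (points, spread sideways at random), with the median as a black line. GZMB is seen in most barcodes, while CCL1, LTA, GNLY, PMCH and TIGIT have a median of 0 and a tail of high cells.

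To see which products went together, the barcodes were split by the presence of 1 transcript or by cycle UMIs. These splits were chosen after the values were seen, and 7 of them were computed. CPM intervals within them treat molecules as independent, although single cells hold many. GZMB, GZMA, NKG7 and CCL5 were rule markers, so the choice of barcodes bears on their levels in these splits. Barcodes with an IFNG UMI (77) had CCL3 at 4242 CPM against 852 CPM in the 51 without, CCL4 at 5319 against 1673 CPM and LTA at 586 against 151 CPM. Cell by cell, the median was 2.17 against 0.353 CCL3 UMIs per 1000, and CCL3 was seen in 84.4% against 54.9% of barcodes. CRTAM followed, seen in 57 of 77 against 17 of 51. The barcodes with IFNG were deeper, with a median of 3445 against 2298 UMIs, which raises the share in which any gene is seen. IFNG with CCL3 or CCL4 was found in 69 barcodes.

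GNLY was not spread in the same way. Its sum was 213 CPM in barcodes with IFNG and 950 CPM in those without, although 21 of the 40 barcodes with GNLY also had IFNG. Barcodes with GNLY had CCL5 at 3628 CPM against 1104 CPM in the 88 without, with medians of 3.70 and 0.911 UMIs per 1000. GZMA stood at 2264 against 1048 CPM (medians 1.36 and 0.622) and IL32 at 2703 against 1262 CPM (medians 1.99 and 1.07). Their depth was lower, at a median of 2679 against 3166 UMIs. CRTAM was seen in 16 of 40 against 58 of 88.

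Barcodes with CCL1 (54) had LTA at 686 CPM against 222 CPM, CRTAM at 1183 against 337 CPM, TNFRSF18 at 511 against 208 CPM and XCL1 at 298 against 73.9 CPM. GZMB was seen in 54 of 54 and its median was 3.61 against 1.75 UMIs per 1000. LTA was seen in 36 of 54 against 14 of 74. The barcodes with CCL1 were deeper, with a median of 3401.5 against 2606.5 UMIs, which raises the share in which any gene is seen. GNLY and CCL1 were found together in 15 barcodes, and 79 had at least 1 of them. In barcodes with PMCH (41), GNLY stood at 90.1 against 642 CPM and was seen in 7 of 41 against 33 of 87. Those with PMCH had a median of 3406 against 2777 UMIs.

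The 59 barcodes with 10 or more cycle UMIs had lower sums of several secreted products than the 69 below. LTB stood at 497 against 1573 CPM, CCL1 at 748 against 1429 CPM, IFNG at 562 against 1108 CPM and CCL3 at 2396 against 4281 CPM. The cells taken singly did not repeat this for every gene. Median CCL3 was 1.16 against 1.22 UMIs per 1000. Median IFNG was higher, at 0.380 against 0, and IFNG was seen in 43 of 59 against 34 of 69. CCL1 was seen in 26 of 59 against 28 of 69, with an upper quartile of 0.752 against 0.830. Median LTB was lower, at 0.246 against 0.473. The sums below the limit include high single barcodes: 1 held 88 LTB UMIs, 1 held 45 IFNG UMIs and 1 held 52 CCL1 UMIs. The upper quartile of IFNG was 0.752 against 0.975 UMIs per 1000, and that of LTB 0.504 against 1.11. GZMB stood at 3164 against 3766 CPM and LAG3 at 368 against 438 CPM. The cycling barcodes were deeper, with a median of 4039 against 2498 UMIs, and 19 barcodes lay within 2 UMIs of the limit (10 with 8 or 9, 9 with 10 or 11).

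**Figure D5:**
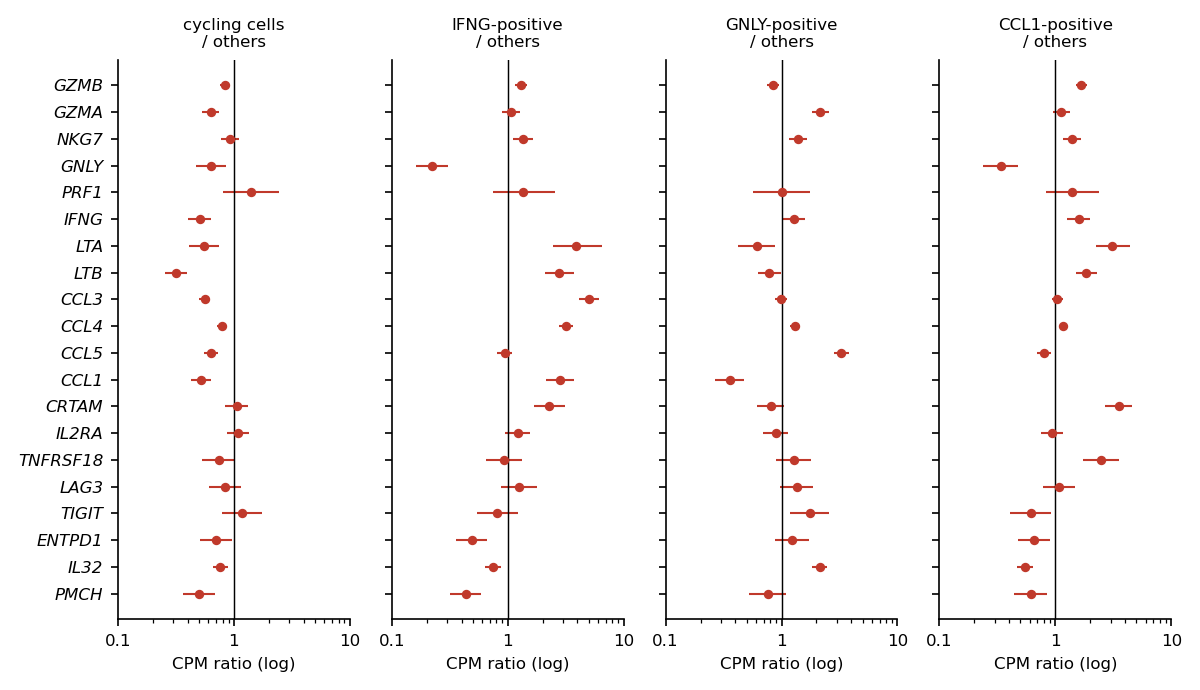
Ratio of summed CPM (x axis, log scale) of 20 genes between T cell barcodes with and without 10 cycle UMIs, an IFNG UMI, a GNLY UMI or a CCL1 UMI, with 95% intervals for counting error; the gene that made the split is not drawn. CCL3 lies at 4.98 for IFNG and CCL5 at 3.29 for GNLY, and LTB at 0.316 for cycling.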

How the data were processed

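Single-cell RNA was read from 1 parental and 1 persister library prepared, per the labels' protocols, with 10x Chromium 3' v3 chemistry. The deposited matrices hold raw UMI counts (whole numbers for each gene in each barcode, per the file headers) without scaling. Cell Ranger 3.1.0 and GRCh38 are listed, per the submitters' processing notes. The annotation release and the handling of reads fitting several genes are not given in the sources used here. The libraries held 88214007 and 80802724 UMIs in 10751 and 7144 barcodes.

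Barcodes with at least 500 genes, 1000 UMIs and at most 20% mitochondrially encoded UMIs were kept (10630 and 6767). The marker rule then chose the T cell barcodes. Their UMIs and those of all other kept persister barcodes were summed per gene and scaled to CPM. A gene was measured at 25 CPM or more in either sum, and called at a CPM ratio of 2 or more or of 0.5 or less; a count of 0 was set to 3 UMIs in a ratio. Intervals are 95% exact Poisson (sums), exact conditional (ratios) and Clopper-Pearson (shares). Cells were thinned at random to 1000 UMIs for shares and variances. TMM came from edgeR 4.0.16, used for scaling only; the rest ran in Python 3.11.15 with numpy 2.4.6, scipy 1.17.1 and pandas 2.3.3. No p-value was computed. The comparison step was tested on simulated sums. GENCODE 29 (GRCh38) gave positions and same-strand overlaps for 33456 of the 33538 gene IDs.

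The members and the 25 gene lists were chosen with earlier results of these data known. Genes named outside the lists are the 15 with the largest and the 10 with the smallest log2(CPM + 1) difference among measured genes, leaving out rule markers, antigen receptor, ribosomal, mitochondrial and clone-named genes. List genes with 10 or more UMIs are given by value. IL32 and MALAT1 were named after their values were seen, as were the splits of T cell barcodes. Receptor segments, genes that could tell about a donor and some members of the lists are not reported here. Alternatives are given with their effect in the closing section.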

Additional observations from a re-analysis of the deposited data

Results flagged for a closer look

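T cell marker barcodes were also found among the persister barcodes that failed the cell filter and entered no comparison. The marker rule was met by 20 of 377 such barcodes (5.31%), against 0 of 121 failing parental barcodes. Of the 20, 16 had under 1000 UMIs and 5 had over 20% mitochondrially encoded UMIs, and their median was 846 UMIs. GZMB was among the markers that chose them, so its level is a description of the choice. Their summed GZMB level was 5206 CPM (95% exact Poisson interval 4294 to 6254), against 3418 CPM in the T cell barcodes that passed, and their CCL4 level was 2831 CPM (2171 to 3630) against 4189 CPM. IFNG stood at 685 CPM (383 to 1130) against 792 CPM. LTB, no marker, stood at 1690 CPM (1190 to 2329) against 951 CPM.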

How the results depend on the processing

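No paired analysis was possible because each group has 1 library. The number of T cell barcodes was 32 with at least 1000 genes, 2000 UMIs and at most 10% mitochondrial UMIs; with other marker limits it ran from 97 to 146. The tumour RNA share became 23.0% with a marker share of 0.25% or more and 8.19% as a ratio of summed levels. The share with 3 or more cycle UMIs was 97.1% among 104 barcodes thinned to 2000 UMIs and 94.5% with no thinning; it was 67.2% at 5 or more UMIs and, by measures added after the data were seen, 46.1% at 10 or more and 45.3% for MKI67 or TOP2A. Genes at least 2-fold higher numbered 1049 with TMM, 468 at 100 CPM or more and 4110 with no filter; genes at least 2-fold lower numbered 1662 with TMM, 1451 at 10 CPM or more, 349 at 100 CPM or more and 1731 with no filter. By construction, the filters change how many genes are tested, a higher UMI limit passes fewer barcodes and a deeper draw holds more cycle UMIs. TMM scales all ratios by the same factor. The cause of the other shifts was not tested. CDKN2A turned to -0.18 (log2 ratio of CPM) under the stricter cell filter. Of 237 calls of single genes, 21 fell under 2-fold with TMM, most of them in cell cycle genes. The number was 13 with the stricter cell filter and 10 with each barcode weighted equally. It was 8 without the barcodes above the median melanoma share and 7 at a marker share of 1% or more. A limit of at least 5 markers kept the same 128 barcodes, so it could change no call. With 428026 UMIs, a gene without a UMI in the T cell barcodes may still reach 7.01 CPM, the limit of 3 UMIs used here. The 95% exact Poisson interval for 0 UMIs reaches 8.62 CPM.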
